A study of Homo sapiens with 6 samples.

Results

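Genes of DNA replication and nucleotide supply were followed in KYSE150 cells given TPA or the solvent DMSO. The set holds 50 genes chosen by name, 50 of the 60591 genes in the deposited count table, and each of them had enough counts to enter the test, which covered 21825 genes. By role they comprise the replicative helicase (6 genes), origin licensing (5), origin firing (8), the sliding clamp and its loader (6), primase and polymerases (9), the single-strand binding protein (3), Okazaki fragment maturation (4), nucleotide supply (5), the copying of chromatin (3) and the transcription factor gene E2F1. KYSE150 is an established line from a human oesophageal squamous cell carcinoma, and TPA is a phorbol ester that activates protein kinase C. Total RNA was sequenced from 3 TPA libraries and 3 DMSO libraries, numbered 1 to 3 in each group. Every sample carries the same protocol text, in which subconfluent cells were starved of serum overnight and then received TPA at 10 ng/ml for 24 h. For DMSO neither time nor amount is stated. The measurements describe 1 starved cell line at 1 time, and nothing in the labels ties the libraries of a group to separate cultures. The p-values below therefore reflect how far these samples differ, which may be technical spread only.

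In G1 the origin recognition complex, CDC6 and CDT1 load the MCM2-7 helicase on replication origins, and geminin prevents reloading later in the cycle. The kinases CDC7-DBF4 and CDK, with MCM10, CDC45 and the GINS complex, turn the loaded rings into moving helicases, behind which DNA polymerases work on a template coated by RPA and held by the PCNA clamp. Many of these genes carry E2F sites in their promoters, are held down by RB family proteins in resting cells and rise together as cells enter S phase, so their transcripts are widely read as a measure of proliferation in epithelia and tumours.

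Library totals ran from 27702329 to 33965547 counts, and the members had between 100 and 19430 counts in a library. Levels are given as CPM, counts scaled to a common library size with TMM factors, a scaling that evens out differences in composition between libraries. Together the members took 0.228% to 0.486% of a library's counts. Of 12 listed squamous epithelial markers 11 reached 1 CPM in at least 1 library, and the 12 summed to 3303 to 5784 CPM in DMSO and 2923 to 7120 CPM in TPA. KRT6A was among the 11 but had only 0.461, 1.19 and 1.82 CPM in DMSO and 1.41, 21.7 and 22.2 CPM in TPA. The simple keratin gene KRT19 was at no more than 0.130 CPM. Markers of leukocytes summed to at most 4.52 CPM, those of endothelium to 3.00 and those of fibroblasts to 12.2, with KDR and DCN at 0 counts. The 2 markers of lowest p in each list did not pass the test described below, with log2 fold changes of -1.21 ± 0.29 (SE) for TP63 and 3.70 ± 0.98 for KRT6A (squamous), -1.33 ± 0.32 for CD3E and 1.69 ± 0.41 for ITGAM (leukocyte), -0.79 ± 0.38 for PECAM1 and -0.16 ± 0.58 for VWF (endothelial) and -0.31 ± 0.52 for COL1A1, the 1 fibroblast gene tested.

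No member passed the test of TPA against DMSO in the comparison of 3 with 3 libraries. In the quasi-likelihood test of edgeR, with p adjusted over all genes by the Benjamini-Hochberg method, 0 of 50 members were higher and 0 lower at an adjusted p under 0.05, where 0.861% of all genes tested were higher and 0.394% lower. DESeq2 called 7 members lower (4.19% of all genes) and limma-voom 1 (0.596%), neither called any member higher (7.8% and 1.13% of all genes), and in the edgeR test 10 members and 4814 genes of all had an unadjusted p under 0.05. The median log2 fold change was 0.06 for the members and -0.11 for all genes. Behind these medians the libraries disagreed. The summed level of the members was 3244, 4355 and 4387 CPM in DMSO 1, 2 and 3 and 2394, 5157 and 4831 CPM in TPA 1, 2 and 3, so that the first TPA library was the lowest of the 6 and the other two were the highest. In bulk RNA fewer cycling cells and less of these transcripts per cell cannot be told apart.

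Read pair by pair, as the TPA library against the DMSO library of the same number, the direction depended on the pair. In pair 1 all 50 members were lower in TPA (49 with RLE factors, and 51.5% of all genes), by a median log2 ratio of -0.60 against -0.02 for all genes, from -0.04 for FEN1 to -1.33 for RNASEH2A. In pair 2, 20 were lower and 30 higher (56.5% of all genes were lower), with a median of 0.32 against -0.19, and in pair 3, 19 were lower and 31 higher (56.3% of all genes were lower), with a median of 0.15 against -0.17. Past 1.5-fold, pair 1 had 26 members lower (18% of all genes) and 0 higher (10.8%), pair 2 had 13 lower (37.3%) and 15 higher (22.5%), and pair 3 had 12 lower (34.7%) and 3 higher (18.2%). Single pairs have no replicate, so these counts carry no test. With library size as the only scaling pair 3 had 31 members lower in place of 19.

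**Figure D1:**
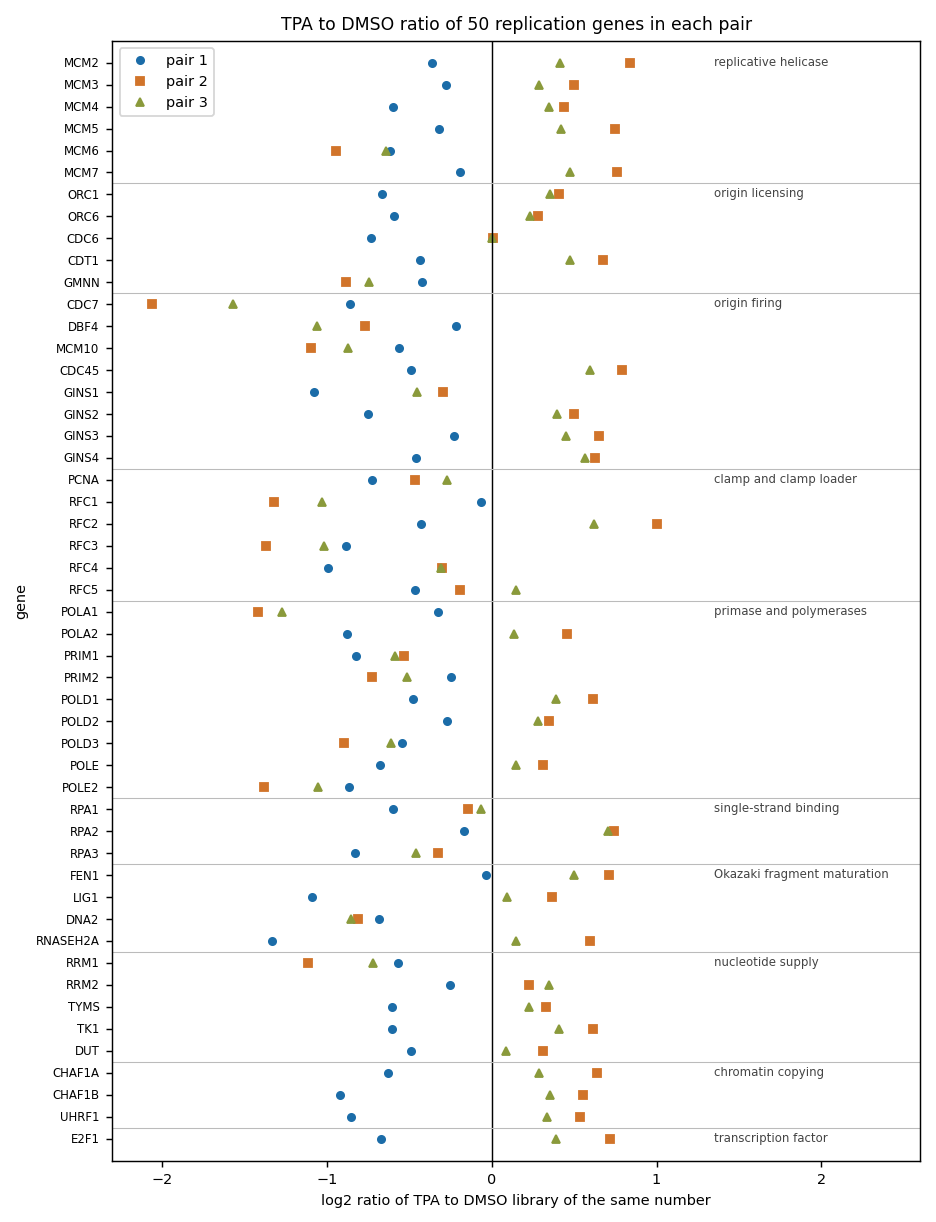
The log2 ratio of the TPA to the DMSO library of the same number is shown on the x axis for each of the 50 members, grouped by role on the y axis, with 1 symbol per pair. Pair 1 lies to the left of 0 for all 50 members, while pairs 2 and 3 lie on the same side of 0 as each other for every member but RFC5, with 30 to the right and 19 to the left.

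The members therefore fall into 30 that were lower in pair 1 but higher in pairs 2 and 3, 19 that were lower in all 3 pairs, and RFC5, which was lower in pairs 1 and 2. Every TPA library lay below every DMSO library for 12 of the 50 members, which by this condition all belong to the 19. No member had every TPA library above every DMSO library. Among all genes these shares were 15.2% and 14.3%. The 12 are GMNN, CDC7, MCM10, RFC3, POLA1, PRIM1, PRIM2, POLD3, POLE2, RPA3, DNA2 and RRM1, a set that spans the steps from licensing to nucleotide supply. The other 7 genes lower in all 3 pairs are MCM6, DBF4, GINS1, PCNA, RFC1, RFC4 and RPA1.

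Promoter sequences were read for the E2F sites that many genes of this kind are known to carry. RefSeq windows of 250 bases before and 50 after the transcription start (GRCh38.p14) were at hand for 43 of the 50 members. A canonical E2F site (TTTCCCGC, TTTGGCGC, TTTCGCGC or TTTGCCGC on either strand) was found for 22 of the 43 (51.2%), against 3.99% of all 27305 gene symbols with a window. Since replication genes are known for such sites, this share is not independent of the choice of members. The symbols were not matched to the members for promoter GC content, which had a median of 66% in the members. The windows below, each written 5′ to 3′ on the gene's strand, belong to the 4 members of lowest p in the test, to MCM3, the member with the highest level, and to E2F1, whose protein binds such sites. MCM3 and E2F1 were added to the 4 after their values were seen, and for CDC7 the window with more matches of 2 is shown. Capitals mark the E2F matches, which start 68 and 34 bases before the transcription start in CDC7, 55 in RFC3, 5 in POLE2, 174 and 4 in MCM3 and 33 and 20 in E2F1, while RRM1 has none in its window. The windows are chr1:91500862-91501161 (plus strand) for CDC7, chr13:33817899-33818198 (plus) for RFC3, chr14:49688165-49688464 (minus) for POLE2, chr11:4094435-4094734 (plus) for RRM1, chr6:52284693-52284992 (minus) for MCM3 and chr20:33686336-33686635 (minus) for E2F1.
CDC7: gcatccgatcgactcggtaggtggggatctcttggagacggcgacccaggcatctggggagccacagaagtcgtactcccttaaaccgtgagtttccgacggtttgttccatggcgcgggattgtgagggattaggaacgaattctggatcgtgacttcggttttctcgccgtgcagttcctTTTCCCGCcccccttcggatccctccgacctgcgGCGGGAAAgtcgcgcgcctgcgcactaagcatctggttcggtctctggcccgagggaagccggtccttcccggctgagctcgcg
RFC3: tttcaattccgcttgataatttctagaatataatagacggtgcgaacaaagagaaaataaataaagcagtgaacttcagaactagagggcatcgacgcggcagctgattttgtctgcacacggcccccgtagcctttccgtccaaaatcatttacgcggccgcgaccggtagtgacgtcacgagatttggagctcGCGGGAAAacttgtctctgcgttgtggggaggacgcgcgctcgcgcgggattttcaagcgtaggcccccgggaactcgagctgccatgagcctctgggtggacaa
POLE2: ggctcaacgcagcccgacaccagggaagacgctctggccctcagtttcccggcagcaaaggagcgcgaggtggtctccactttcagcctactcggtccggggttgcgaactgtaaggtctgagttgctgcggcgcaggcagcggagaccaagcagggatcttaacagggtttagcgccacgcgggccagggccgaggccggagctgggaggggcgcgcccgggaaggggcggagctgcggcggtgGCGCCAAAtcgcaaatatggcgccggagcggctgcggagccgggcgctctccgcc
RRM1: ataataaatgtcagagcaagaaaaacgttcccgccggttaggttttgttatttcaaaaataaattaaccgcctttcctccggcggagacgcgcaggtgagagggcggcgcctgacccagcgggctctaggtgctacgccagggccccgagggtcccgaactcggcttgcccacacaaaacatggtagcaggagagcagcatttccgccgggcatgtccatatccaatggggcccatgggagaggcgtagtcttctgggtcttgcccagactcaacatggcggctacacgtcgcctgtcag
MCM3: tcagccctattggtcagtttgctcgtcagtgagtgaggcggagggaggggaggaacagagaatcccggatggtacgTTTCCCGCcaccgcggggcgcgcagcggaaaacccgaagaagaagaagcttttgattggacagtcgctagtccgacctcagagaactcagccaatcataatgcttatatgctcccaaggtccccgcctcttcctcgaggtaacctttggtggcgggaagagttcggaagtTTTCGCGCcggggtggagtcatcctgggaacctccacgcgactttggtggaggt
E2F1: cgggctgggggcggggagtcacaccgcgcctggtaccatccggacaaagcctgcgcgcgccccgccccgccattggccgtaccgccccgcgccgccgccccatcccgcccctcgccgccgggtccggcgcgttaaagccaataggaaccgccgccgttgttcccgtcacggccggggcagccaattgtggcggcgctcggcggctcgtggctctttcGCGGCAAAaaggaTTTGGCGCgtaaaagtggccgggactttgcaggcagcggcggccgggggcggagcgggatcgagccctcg

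Other short motifs were counted on both strands of the same windows. A GC box (GGGCGG) was in 33 of 43 members (76.7% against 48.3% of all symbols) and a CCAAT box (CCAAT) in 26 (60.5% against 39.7%). A cell cycle homology region, a short element of promoters active late in the cycle (TTTGAA or TTCGAA), was in 4 (9.30% against 19.5%), and the TPA response element of AP-1 (TGAGTCA or TGACTCA) in 0 of 43, where 6.05% of all symbols had one. Of 32 E2F matches in the members' windows 4 shared a base with a match of another motif. Members with and without an E2F match had median log2 ratios of -0.67 and -0.56 in pair 1, 0.32 and 0.28 in pair 2 and 0.12 and 0.23 in pair 3. A match describes letters in a window and says nothing of whether a factor was bound.

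The MCM2-7 helicase, the ring that unwinds DNA at the fork, includes MCM3 and MCM7, the members with the highest mean DMSO levels per kb of exon. MCM3 (chromosome 6, 52264009 to 52284881) had 271, 462 and 490.4 CPM in DMSO 1, 2 and 3 and 223, 653 and 597 CPM in TPA 1, 2 and 3. Library 1 was the lowest in each group, and the TPA libraries lay on both sides of the DMSO libraries, so the log2 fold change of 0.27 ± 0.42 (SE) was smaller than its error (adjusted p = 0.733, edgeR quasi-likelihood with Benjamini-Hochberg adjustment). MCM7 (chromosome 7, 100092728 to 100101940) had 276, 308 and 340.0 CPM in DMSO and 241, 521 and 472 CPM in TPA, again with TPA 1 lowest and TPA 2 and 3 highest (0.42 ± 0.30, adjusted p = 0.452). MCM6 (chromosome 2, 135839626 to 135876426) was the exception in the ring, with 63.2, 134 and 116 CPM in DMSO against 41.1, 69.9 and 74.5 CPM in TPA, lower in all 3 pairs (-0.62, -0.94 and -0.64) but with TPA 2 and 3 above DMSO 1. Its log2 fold change of -0.76 ± 0.35 did not pass (adjusted p = 0.262). MCM2, MCM4 and MCM5 followed MCM3 and MCM7, with pair 1 ratios of -0.36, -0.60 and -0.32 and ratios between 0.35 and 0.84 in pairs 2 and 3. Levels per kb were taken over all annotated exons of a gene in GENCODE 29, not over the transcripts in use. They therefore depend on the annotation, with 3650 exon bases for MCM3 and 7338 for MCM5. On this scale mean DMSO levels of the ring subunits ran in the order MCM3 (112 ± 32.7 CPM per kb, SD, n = 3), MCM7 (70.2 ± 7.29), MCM4 (41.8 ± 6.84), MCM2 (26.8 ± 7.72), MCM6 (25.4 ± 8.99) and MCM5 (15.2 ± 4.09). In this order MCM2 and MCM6, and MCM6 and MCM5, differed by less than the sum of their SDs.

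**Figure D2:**
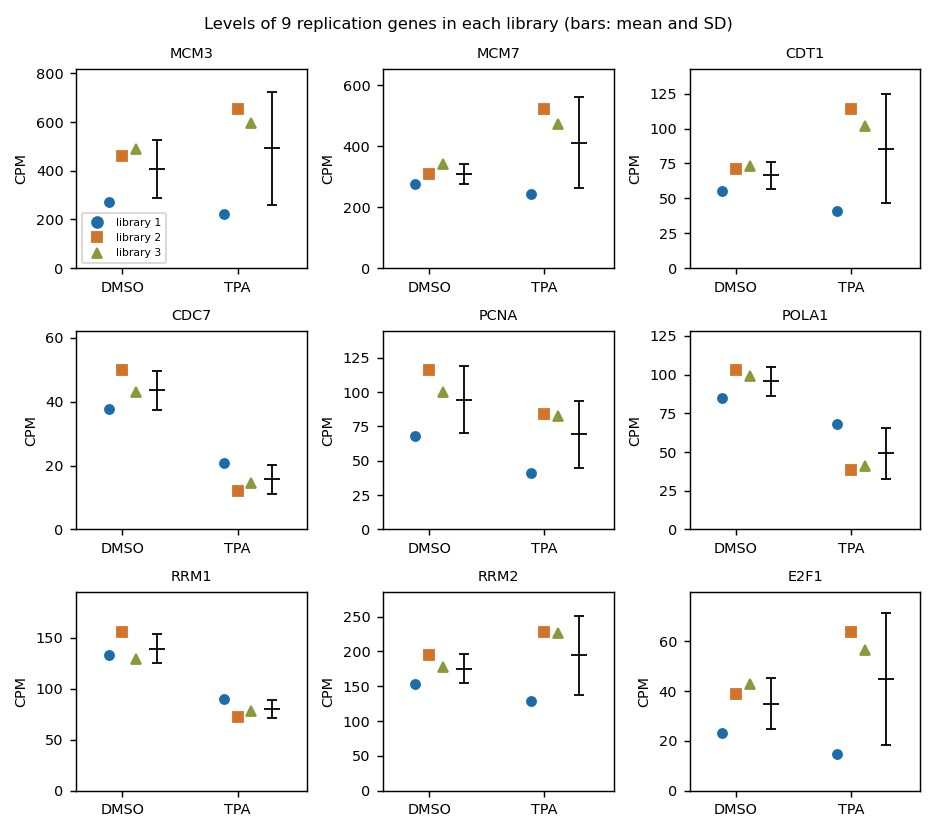
CPM (TMM-scaled) in each library is shown for 9 members, with DMSO and TPA on the x axis, 1 symbol per library number and bars for the mean and SD of the 3 libraries. For MCM3, MCM7, CDT1, RRM2 and E2F1 library 1 falls below libraries 2 and 3 in TPA, while CDC7, POLA1 and RRM1 have all 3 TPA libraries below all 3 DMSO libraries.

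Origin licensing genes were mostly split by pair, with 5 of 5 lower in pair 1 and 4 of 5 higher in pairs 2 and 3. CDT1 (chromosome 16, 88803213 to 88809258), the loader of the MCM ring, had 55.5, 71.2 and 73.1 CPM in DMSO and 41.0, 114 and 102 CPM in TPA (0.36 ± 0.38, adjusted p = 0.605). GMNN (chromosome 6, 24774931 to 24786099), whose product geminin blocks CDT1, went the other way in pairs 2 and 3, with 41.4, 49.9 and 45.5 CPM in DMSO and 30.9, 27.1 and 27.2 CPM in TPA. The groups of GMNN did not overlap, and its log2 fold change of -0.68 ± 0.20 missed the threshold (adjusted p = 0.114). The origin recognition genes ORC1 and ORC6 had pair ratios of -0.66, 0.41 and 0.35 and -0.59, 0.28 and 0.23. CDC6, the ATPase that works with them, had -0.73 in pair 1 and 0.01 in both other pairs, the smallest difference of any member there.

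Among the 8 origin firing genes the 2 kinase genes had ratios below 0 in every pair, without passing the test, and the helicase activators were split. CDC7 (chromosome 1, 91500893 to 91525764), the kinase that triggers loaded origins by phosphorylating MCM proteins, had the lowest p of the set, with 37.6, 49.8 and 43.1 CPM in DMSO and 20.7, 11.9 and 14.5 CPM in TPA. No TPA library reached a DMSO library, and the log2 fold change was -1.47 ± 0.28, with an adjusted p of 0.0571 in edgeR's quasi-likelihood test. DBF4, its activating subunit, was also lower in all 3 pairs (-0.22, -0.77 and -1.06), but TPA 1 lay above DMSO 2 and 3, and with the GC trend described below removed its ratio in pair 2 was above 0 (-0.29, 0.19 and -0.33). MCM10 (chromosome 10, 13161554 to 13211104), a scaffold for helicase activation, had 39.7, 62.4 and 56.3 CPM in DMSO and 26.9, 29.1 and 30.7 CPM in TPA without overlap (-0.87 ± 0.24, adjusted p = 0.0985). CDC45, GINS2, GINS3 and GINS4, which join the MCM ring in the active helicase, were lower in pair 1 (-0.23 to -0.75) and higher in pairs 2 and 3 (0.39 to 0.79). GINS1, the remaining gene of the GINS complex, was lower in all 3 pairs (-1.08, -0.30 and -0.45), so the 4 genes of that complex differed in direction in pairs 2 and 3, though not with the GC trend removed (0.55 and 0.16 for GINS1, and above 0 for the other 3).

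The clamp and clamp loader genes were lower in most pairs, with medians of -0.60, -0.38 and -0.29 in pairs 1, 2 and 3. RFC3 (chromosome 13, 33818049 to 33966558), a small subunit of the loader that opens the clamp, had 39.5, 38.9 and 34.2 CPM in DMSO and 21.4, 15.02 and 16.9 CPM in TPA. Its groups did not overlap and its log2 fold change was -1.08 ± 0.23 (adjusted p = 0.0651). RFC1 (chromosome 4, 39287456 to 39366375), the large subunit, had 145, 129.7 and 118 CPM in DMSO and 139, 52.0 and 57.9 CPM in TPA, so that TPA 1 stood at the DMSO level and TPA 2 and 3 far below it (-0.66 ± 0.39, adjusted p = 0.360). RFC2, another small subunit, had 75.0, 86.6 and 94.8 CPM in DMSO and 55.8, 173 and 146 CPM in TPA, and the ratio of pair 2 was the highest of any member in a single pair. RFC4 was lower in all 3 (-0.99, -0.30 and -0.31) and RFC5 near 0 in pairs 2 and 3 (-0.47, -0.19 and 0.15). PCNA, the clamp itself, had 67.9, 116 and 100.01 CPM in DMSO and 41.0, 83.9 and 82.9 CPM in TPA, with pair ratios of -0.73, -0.47 and -0.27, each smaller in size than the log2 distance between DMSO 1 and DMSO 2.

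Primase and polymerase genes held 5 of the 12 members without overlap. POLA1 (chromosome X, 24693919 to 24996986), the catalytic subunit of the polymerase that extends primers, had 85.1, 103 and 99.0 CPM in DMSO and 67.8, 38.5 and 41.1 CPM in TPA (-0.96 ± 0.28, adjusted p = 0.104). POLE2 (chromosome 14, 49643555 to 49688422), a subunit of the leading-strand polymerase, had 8.43, 13.9 and 11.4 CPM in DMSO and 4.60, 5.31 and 5.48 CPM in TPA (-1.13 ± 0.27, adjusted p = 0.0727). The primase genes PRIM1 and PRIM2 and POLD3, an accessory subunit of the lagging-strand polymerase, were also below DMSO in every library, with log2 fold changes of -0.64 ± 0.23, -0.48 ± 0.22 and -0.70 ± 0.25 that did not pass. Partner subunits went the other way in pairs 2 and 3. POLA2, the partner of POLA1, had pair ratios of -0.88, 0.46 and 0.14, and POLE, the catalytic partner of POLE2, -0.68, 0.31 and 0.15. POLD2 (chromosome 7, 44114681 to 44124358), the most abundant gene of this group, had 155, 224 and 226 CPM in DMSO and 128, 286 and 275 CPM in TPA (0.19 ± 0.34, adjusted p = 0.770), and POLD1, the catalytic subunit beside it, had ratios of -0.47, 0.62 and 0.39.

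RPA is a trimer that coats single-stranded DNA, and its 3 genes showed 3 patterns. RPA1 (chromosome 17, 1829702 to 1900082), the large subunit, had 112, 165 and 158 CPM in DMSO and 73.6, 149 and 151 CPM in TPA (-0.22 ± 0.32, adjusted p = 0.720). Its pair ratios of -0.60, -0.14 and -0.06 left it lower in each pair, with TPA 2 and 3 between DMSO 1 and DMSO 2. RPA2 (chromosome 1, 27891524 to 27914746) had 31.9, 36.7 and 34.9 CPM in DMSO and 28.5, 61.5 and 56.9 CPM in TPA, with TPA 2 and 3 far above the DMSO libraries and TPA 1 below them (0.51 ± 0.31, adjusted p = 0.383). RPA3 (chromosome 7, 7636518 to 7718607), the smallest subunit, had 20.7, 24.0 and 27.4 CPM in DMSO and 11.6, 19.1 and 19.96 CPM in TPA, without overlap (-0.51 ± 0.28, adjusted p = 0.327).

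For Okazaki fragment maturation, the nuclease genes FEN1 and DNA2 differed in pairs 2 and 3. FEN1 (chromosome 11, 61792637 to 61797244), the flap endonuclease, had 84.0, 116 and 124 CPM in DMSO and 81.9, 189.5 and 175 CPM in TPA, the smallest pair 1 difference of the set (0.47 ± 0.34, adjusted p = 0.461). DNA2 (chromosome 10, 68414064 to 68472121), a nuclease and helicase for long flaps, had 22.8, 29.7 and 29.4 CPM in DMSO and 14.2, 16.9 and 16.2 CPM in TPA, with nearly the same ratio in each pair (-0.68, -0.81 and -0.85; -0.79 ± 0.22, adjusted p = 0.101). With the GC trend removed this likeness was lost for DNA2 (-0.78, 0.17 and -0.03), and FEN1 had -0.06, 0.14 and 0.03. LIG1, the ligase that seals fragments, and RNASEH2A, which helps remove RNA primers, had the lowest pair 1 ratios of the set, -1.09 and -1.33, yet were higher in pair 2 (0.37 and 0.60) and slightly higher in pair 3 (0.10 and 0.15).

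Ribonucleotide reductase makes deoxynucleotides, and the genes of its 2 subunits parted in pairs 2 and 3. RRM1 (chromosome 11, 4094707 to 4138876), the catalytic subunit, had 133, 156 and 129 CPM in DMSO and 89.5, 72.1 and 78.6 CPM in TPA without overlap (-0.80 ± 0.20, adjusted p = 0.0837). RRM2 (chromosome 2, 10120698 to 10131419), the radical-bearing subunit whose level normally follows S phase, had 154, 195 and 178 CPM in DMSO and 129, 228 and 227 CPM in TPA (0.15 ± 0.27, adjusted p = 0.769). TPA 2 and 3 were the highest RRM2 libraries and TPA 1 the lowest. TK1 (chromosome 17, 78174075 to 78187233), the thymidine salvage kinase, had the same order, with 33.7, 48.7 and 52.8 CPM in DMSO and 22.1, 74.7 and 70.1 CPM in TPA (0.30 ± 0.45, adjusted p = 0.717). TYMS, which makes thymidylate, and DUT, which removes dUTP, had pair ratios of -0.60, 0.33 and 0.23 and -0.49, 0.31 and 0.09. On the per-kb scale RRM1 (33.4 ± 3.47 CPM per kb in DMSO) and RRM2 (32.9 ± 3.88) did not differ beyond their spread.

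The genes that copy chromatin behind the fork and E2F1 had the pattern of most of the MCM ring, with a wide spread in TPA. CHAF1A (chromosome 19, 4402662 to 4445018), a subunit of the histone chaperone CAF-1, had 51.2, 75.2 and 83.6 CPM in DMSO and 33.1, 117 and 102 CPM in TPA (0.27 ± 0.45, adjusted p = 0.756), and its partner CHAF1B had pair ratios of -0.92, 0.55 and 0.35. UHRF1 (chromosome 19, 4903080 to 4962154), which guides maintenance methylation, had 40.5, 62.3 and 68.8 CPM in DMSO and 22.4, 90.5 and 86.9 CPM in TPA (0.22 ± 0.50, adjusted p = 0.820). E2F1 (chromosome 20, 33675683 to 33686404), the activator of many of these promoters, had 23.3, 38.8 and 43.0 CPM in DMSO and 14.6, 63.9 and 56.5 CPM in TPA (0.36 ± 0.52, adjusted p = 0.712). In these genes TPA 1 was below every DMSO library and TPA 2 and 3 above every one. For some of the genes named so far the sign of the log2 fold change depended on the scaling. Among those given with a log2 fold change, MCM3, POLD2, RRM2, CHAF1A and UHRF1 were below 0 with library size only. With the GC offset described next, MCM3, MCM7, CDT1, POLD2, TK1, CHAF1A, UHRF1 and E2F1 were. Several members given by pair ratios only also went from above 0 to below 0 with that offset and a replicate block. They are MCM2, MCM4, MCM5, ORC1, ORC6, GINS2, POLA2, POLD1, POLE, RNASEH2A, TYMS and CHAF1B.

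In pairs 2 and 3 the ratio followed the GC content of the transcript. Across the 50 members the Spearman correlation of the log2 ratio with the GC content of the longest transcript was 0.07 in pair 1, 0.81 in pair 2 and 0.75 in pair 3, a description over genes that share the same 6 libraries. It was -0.12, 0.68 and 0.62 over 11799 expressed genes, where the same trend was present. Of the members with a GC content over 46%, a value chosen after the trend was seen, 26 were higher in pairs 2 and 3 and 1, RPA1, was lower. Of those at or under it 4 were higher (GINS3, CDC6, RRM2 and DUT), 18 were lower and RFC5 went both ways. Partner subunits that parted in pairs 2 and 3 differed in GC content, with 42.9% for POLA1 and 54.5% for POLA2, 43.7% for POLE2 and 55.6% for POLE, and 43.1% for MCM6 against 57.6% for MCM7. For RRM1 and RRM2 it was 43.5% and 45.8%, both under 46%. With the GC content of the promoter windows the correlation was 0.28 for the mean of pairs 2 and 3 and 0.01 for pair 1 (43 members). After each library's trend on transcript GC content was removed, 50 members were lower in pair 1 (54% of all genes), 22 in pair 2 (58.4%) and 33 in pair 3 (60.1%), and the members' correlation with GC content was 0.19, 0.10 and 0.13. Of the 30 members higher in pairs 2 and 3, 13 were still higher in both, 8 were lower in both and 9 went both ways, and of the 19 lower in both, 14 were still lower, 3 were higher (GINS1, PRIM1 and PRIM2) and 2 went both ways (DBF4 and DNA2). Of the 12 members without overlap 6 still had every TPA library below every DMSO library, and 8 of all 50 members then did. The share of all genes was not taken for this count. Some partners no longer parted in pairs 2 and 3, as with POLA2 (-0.14 and -0.34) beside POLA1 (-0.76 and -0.85) and POLE (-0.31 and -0.34) beside POLE2 (-0.84 and -0.74), while RRM1 (-0.54 and -0.37) and RRM2 (0.42 and 0.37) still did.

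**Figure D3:**
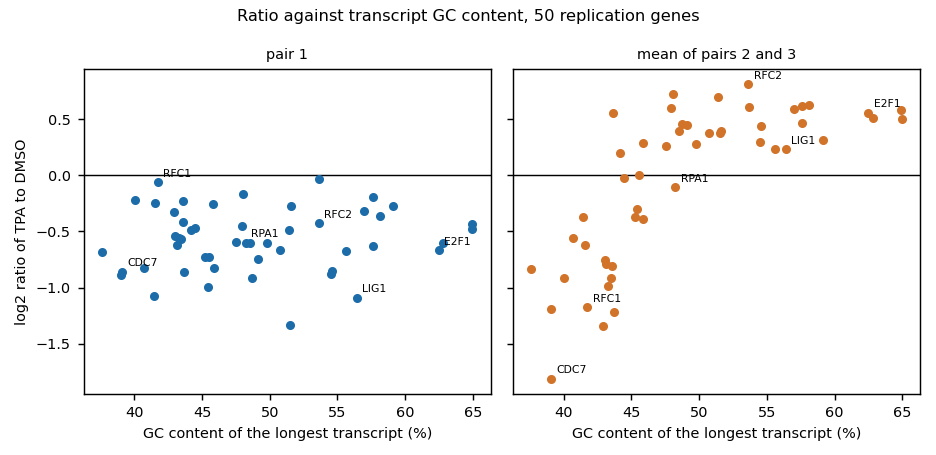
Each point is 1 of the 50 members, with the GC content of its longest transcript in percent on the x axis and the log2 ratio of TPA to DMSO on the y axis, for pair 1 on the left and the mean of pairs 2 and 3 on the right. In pair 1 all points lie below 0 at any GC content, while in pairs 2 and 3 the points rise from CDC7 at the lower left to RFC2 and E2F1 at the upper right.

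Calls among the members depended on how library number and GC content were handled. With the replicate number as a block, which takes same-numbered libraries as pairs, 0 members were higher and 5 lower (CDC7, MCM10, POLA1, POLE2 and RFC3), against 4.58% and 6.52% of all genes. The adjusted p of CDC7 was then 0.0110 and that of RFC3 0.0199. Adding the GC offset to the block gave 0 higher and 7 lower (CDC7, GMNN, MCM10, POLA1, POLE, POLE2 and RRM1), against 9.17% and 10.8% of all genes, with 4 genes called by both fits. The share of members called lower in these fits, 5 or 7 of 50, was near that of all genes. CDC7, MCM10, POLA1 and POLE2 were lower in both, with log2 fold changes of -0.94, -0.54, -0.66 and -0.84 after the GC offset, smaller in size than the -1.499, -0.85, -1.01 and -1.11 of the block alone. Without both libraries numbered 1, 29 members were higher and 15 lower (32.2% and 33.3% of all genes), a comparison of 2 with 2 libraries that lie close together. Leaving out TPA 1 alone gave 26 higher and 11 lower (24.6% and 27.8% of all genes), while leaving out any 1 of the other 5 libraries gave 0 and 0 in the same edgeR test. Of all genes those fits called 0.449% higher and 0.169% lower without DMSO 1, 0.105% and 0.00437% without TPA 2, 0.00873% and 0% without TPA 3, and 0% either way without DMSO 2 or DMSO 3.

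Libraries numbered 1 differed from the others in both groups. DMSO 1 was below DMSO 2 and 3 for 44 of 50 members (41.7% of all genes), by a median of -0.43 on the log2 scale, and TPA 1 was below TPA 2 and 3 for 42 (45.9%), by a median of -1.09. The remaining 8 members had TPA 1 above both. Libraries 2 and 3 lay close together, with a median absolute log2 difference between them of 0.12 in DMSO and 0.12 in TPA over the members, and no member over 0.29. In an edgeR quasi-likelihood test of the interaction, the TPA effect was more negative in number 1 than in numbers 2 and 3 for 33 members and more positive for 5 (CDC7, DBF4, MCM10, RFC1 and POLA1) at an adjusted p under 0.05, where 21.6% and 25.1% of all genes were. The median difference was -0.72 for the members and 0.04 for all genes. With the GC offset 36 were more negative and 2 more positive (11.2% and 13.6% of all genes), and 28 members were more negative and 2 (RFC1 and POLA1) more positive in both fits. The difference for E2F1 was -1.23 ± 0.18 (SE), for UHRF1 -1.29 ± 0.16, for MCM7 -0.81 ± 0.16 and, on the other side, for RFC1 1.11 ± 0.16 and for POLA1 1.01 ± 0.15. With the GC offset these became -0.60, -0.77, -0.23, 0.36 and 0.43, and MCM7 no longer passed (adjusted p = 0.125). The spread in this test is only that between libraries 2 and 3, which may be technical, so its p-values may be too small. Summed squamous markers were also lowest in library 1 of each group (3303 CPM in DMSO 1 and 2923 CPM in TPA 1) and their part in the result was not tested. The labels name no batch.

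Other genes of the same pathways went both ways in pair 1. Of 52 further genes of licensing, forks, nucleotide metabolism and chromatin copying, 0 were higher and 0 lower in the edgeR test (0.861% and 0.394% of all genes). Of the 52, 18 had an unadjusted p under 0.05 (4814 of 21825 genes tested). In pair 1, 34 were lower (51.5% of all genes), with a median of -0.25 against -0.02 for all genes. The block called 2 higher and 7 lower (4.58% and 6.52% of all genes). HELLS, a chromatin remodeller of replicating cells, had 92.7, 140.4 and 128 CPM in DMSO and 52.2, 30.4 and 34.2 CPM in TPA and came closest to the threshold (-1.63 ± 0.29, adjusted p = 0.0502). The maintenance methyltransferase gene DNMT1, which acts with UHRF1, had 231, 237 and 249 CPM in DMSO and 235, 476 and 452 CPM in TPA (0.70 ± 0.29, adjusted p = 0.210). The helicase gene MCM8 had 22.6, 29.6 and 23.7 CPM in DMSO and 19.2, 9.01 and 8.61 CPM in TPA (-1.04 ± 0.36), and TOPBP1, which helps to activate origins, had 148, 143 and 128 CPM and 115, 46.4 and 54.3 CPM (-0.96 ± 0.36). The clamp-binding gene PCLAF had 5.37, 6.59 and 7.46 CPM in DMSO and 2.28, 2.66 and 3.03 CPM in TPA (-1.28 ± 0.27), and the fork gene WDHD1 had 26.0, 32.9 and 33.4 CPM and 15.6, 15.7 and 14.8 CPM (-1.003 ± 0.21). All 4 were without overlap between the groups, as were 15.2% of all genes on the lower side, and none passed. In nucleotide metabolism the salvage kinase gene DCK was lower (11.6, 12.2 and 11.3 CPM against 6.49, 4.67 and 6.36 CPM) and the deaminase gene DCTD higher (63.0, 62.2 and 64.1 CPM against 94.5, 137 and 129 CPM), both without overlap, with adjusted p = 0.0734 and 0.0734. With the GC trend removed, the genes named here kept the sign of their ratios in pairs 2 and 3, but each ratio was smaller in size. The ratios were then -1.23 and -1.08 for HELLS, -0.080 and -0.36 for WDHD1, -0.38 and -0.024 for DCK and 0.39 and 0.38 for DNMT1.

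Lists of linked processes were set beside the members. Of all genes, 51.5% were lower in pair 1, 56.5% in pair 2 and 56.3% in pair 3. The edgeR test called 0.861% of all genes higher and 0.394% lower. Replication-dependent histone genes, made in S phase with DNA, were also mostly lower in pair 1 (31 of 32 tested genes) and higher in pairs 2 and 3 (1 and 5 lower), with medians of -0.84, 0.57 and 0.29 in pairs 1, 2 and 3, and 0 higher and 0 lower in the edgeR test (0 at an unadjusted p under 0.05). Among them H1-4 had 304, 328 and 387 CPM in DMSO and 232, 671 and 543 CPM in TPA, and H2AC8 had 66.4, 54.1 and 61.3 CPM in DMSO and 41.3, 104 and 105 CPM in TPA. With the GC trend removed the ratios in pairs 2 and 3 were 0.39 and -0.0043 for H1-4 and 0.32 and 0.28 for H2AC8. Most histone mRNAs of this kind lack poly(A) tails and many of the genes are nearly the same in sequence, which leaves their counts uncertain and dependent on the RNA selection, not given in the sources used here. Of 30 mitosis genes 29 were lower in pair 1 (medians -0.68, -0.14 and -0.23), 0 rose and 2 fell. TOP2A, the topoisomerase that untangles replicated DNA, fell from 191, 221 and 242 to 99.0, 85.6 and 93.5 CPM (-1.23 ± 0.20, adjusted p = 0.0411, edgeR quasi-likelihood), and BUB1B, a spindle checkpoint kinase, fell from 39.3, 50.1 and 44.3 to 21.4, 14.9 and 16.4 CPM (-1.35 ± 0.24, adjusted p = 0.0498). Both calls ended on leaving out any library but TPA 1 (adjusted p of 0.0622 to 0.302 for TOP2A and 0.0773 to 0.324 for BUB1B). That of TOP2A also ended with the GC offset (-0.61, adjusted p = 0.238) and that of BUB1B with RLE factors (adjusted p = 0.0516).

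Of 28 genes of E2F, RB and G1/S control 14 were lower in pair 1 (51.5% of all genes), 2 rose (0.861%) and 0 fell (0.394%). CDKN1A, which encodes the CDK inhibitor p21, rose from 90.7, 63.3 and 61.5 to 285, 436 and 410.3 CPM, higher in each pair (1.65, 2.78 and 2.74), with a log2 fold change of 2.39 ± 0.27 (adjusted p = 0.0250, edgeR quasi-likelihood). CCNE1, the gene of cyclin E1, which drives entry into S phase, rose from 1.78, 1.80 and 1.79 to 6.38, 9.11 and 8.22 CPM (2.14 ± 0.26, adjusted p = 0.0253). Leaving out 1 library ended the call of CDKN1A without DMSO 2, DMSO 3, TPA 2 or TPA 3 (adjusted p of 0.0688 to 0.242) and that of CCNE1 without any library but TPA 1 (0.0541 to 0.254). E2F1, an activator of CCNE1 among other genes, had log2 ratios of -0.67, 0.72 and 0.39 in the 3 pairs. Median GC content of the longest transcript was 57.4% for the histone genes, 48.0% for the members, 45.5% for the G1/S control genes and 43.8% for the mitosis genes. The list medians were not corrected for it, and its part in them was not tested. No test of a difference between lists was made.

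**Figure D4:**
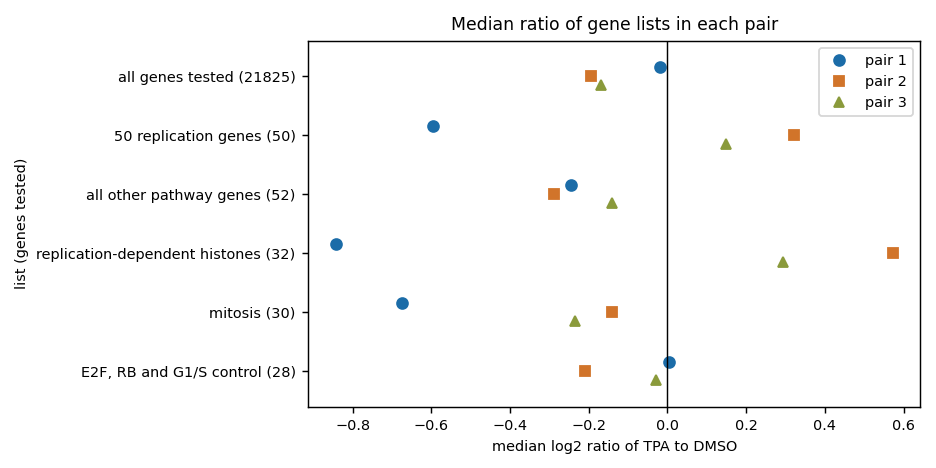
Median log2 ratio of TPA to DMSO on the x axis in each of 3 pairs (symbols), for all genes tested, the 50 members, the other pathway genes and 3 comparison lists on the y axis, with the number of genes tested in brackets. In pair 1 the medians of the members (-0.60), the mitosis genes (-0.68) and the histones (-0.84) lie far left of that of all genes, and in pairs 2 and 3 those of the members and histones lie to the right of 0. The ratios are not corrected for the GC trend.

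Some members share sequence with other genes, and the strand setting of the counting is not given in the sources used here. Exons of 23 members overlap those of another gene in GENCODE 29, by at least 20% of exon bases for MCM2, GINS4, POLA2, RNASEH2A, RRM2 and TYMS. TYMS has the largest overlap, 39.1% with ENOSF1 on the opposite strand, so its reads there can be told from those of ENOSF1 only if the counting used strand. Pseudogene copies named after 10 members (25 copies) were in the table, and those of DUT alone had more than 1% of the counts of their parent gene.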

How the data were processed

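Total RNA of 6 KYSE150 samples was sequenced. The authors deposited raw read counts per gene symbol, with no normalization. HISAT2 2.1.0 and HTSeq 0.12.4 with builds named hg38 and GRCh38 are listed in the submitters' processing notes, while strand setting, annotation and RNA selection were not given in the sources used here. The control columns hold, by number, the DMSO samples, 0 columns fell outside the labels, and a total of 27702329 to 33965547 counts per library sets the precision.

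The main comparison was a quasi-likelihood fit in edgeR (edgeR 4.0.16, limma 3.58.1, R 4.3.3) with TMM factors, filterByExpr and no term but treatment, and p was adjusted over 21825 genes by the Benjamini-Hochberg method, with a threshold of 0.05. Pair ratios are differences of log2 CPM with a prior count of 2. Each standard error is the log2 fold change over the root of its F statistic. The interaction test had treatment, number 1 against numbers 2 and 3, and their product. The GC offset is each library's spline trend (5 degrees of freedom, genes with an average log2 CPM over 2) on the GC content of the longest GENCODE 29 transcript, known for 21021 tested genes. The scripts were tested on simulated data.

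Same-numbered libraries were treated as pairs on the evidence of the data, not from a stated shared culture, because deviations from the group means correlated in same-numbered libraries by 0.55, 0.34 and 0.37. The crossed values, 0.356 for DMSO 2 and TPA 3 and 0.374 for DMSO 3 and TPA 2, were as high, so only number 1 is set apart. Alternatives were DESeq2 1.42.0, limma-voom, RLE factors, scaling by library size only, testing without a filter or with one of 1 CPM in every library of a group, the replicate block, leaving out each library, both libraries numbered 1 left out, and the GC offset with and without the block. Scalings of the pair counts were added after seeing the data.

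The members and lists were chosen with earlier results of these data known. Per-library values are given for the 2 members of lowest p and the most abundant member of each role, for E2F1 and for the 2 genes of lowest p of the other lists, with cell type markers given as log2 fold changes and sums. PCNA, RFC2 and other members outside this rule were picked with their values in view.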

Additional observations from a re-analysis of the deposited data

Results flagged for a closer look

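The effect of TPA in the libraries numbered 1 differed from that in numbers 2 and 3, by the interaction term of the edgeR quasi-likelihood fit, for 33 members in the negative direction and 5 in the positive one. Of all genes tested, 21.6% differed in the negative direction and 25.1% in the positive one. Among the members given with values in every library, the difference in log2 fold change (number 1 minus numbers 2 and 3) was negative for MCM3 (-0.67), MCM7 (-0.81), CDT1 (-1.02), POLD2 (-0.59), RPA1 (-0.50), RPA2 (-0.89), FEN1 (-0.64), RFC2 (-1.24), RRM2 (-0.54), TK1 (-1.12), CHAF1A (-1.09), UHRF1 (-1.29) and E2F1 (-1.23). It was positive for CDC7 (0.95), MCM10 (0.42), RFC1 (1.11) and POLA1 (1.01), whose uncorrected ratios were less negative in pair 1 than in the other pairs. With the GC offset MCM3 (-0.26, adjusted p = 0.0820), MCM7 (-0.23, 0.125), POLD2 (0.0073, 0.969), FEN1 (-0.15, 0.355), CDC7 (-0.0094, 0.973) and MCM10 (-0.11, 0.555) no longer passed in edgeR's test, while the others named here did. With 1 library of each treatment numbered 1, the differences rest on those 2 libraries, and the spread they were set against is that between numbers 2 and 3.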

How the results depend on the processing

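No member was higher in TPA under any alternative that kept TPA 1 in the fit. The number lower, 0 in the reported fit, was 0 with RLE factors and the stricter filter, 1 without the filter, 1 with the GC offset alone and 2 with library size only. For these alternatives the share of all genes called is not given, so their counts cannot be set against it. The number was 1 with limma-voom (0.596% of all genes), 5 with the replicate block (6.52%), 7 with DESeq2 (4.19%) and 7 with the GC offset and block (10.8%). Without both libraries numbered 1 it was 15 (33.3% of all genes), with 29 higher (32.2%). Leaving out 1 library gave 0 to 11 lower and 0 to 26 higher, the upper values without TPA 1 (27.8% and 24.6% of all genes). The members' median log2 fold change (0.06) ran from -0.21 with library size only to 0.50 without TPA 1. Between 37 and 41 members differed between number 1 and the others, against 38. Shares of all genes in that test are given above for the reported fit and the GC offset only. With the GC offset that difference changed sign for CDC7 (-0.0094), MCM10 (-0.11) and POLD2 (0.0073), and MCM10 also missed the threshold with RLE factors, without the filter and with limma-voom. Members below DMSO in pair 3 numbered 31 with library size only, against 19. Library size only moved the median of all genes from -0.11 to -0.36 and RLE factors to -0.01.

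Some of the genes given above with a log2 fold change changed sign, and no value of the new sign passed among them. Members given above by pair ratios only changed sign too. Of these, POLE went from 0.037 in the reported fit to -0.44 with the GC offset and block, which passed (adjusted p = 0.0458, edgeR quasi-likelihood). With library size only the log2 fold changes were -0.0036 for MCM3, -0.081 for POLD2, -0.11 for RRM2, -0.0087 for CHAF1A and -0.057 for UHRF1. With the GC offset, alone and then with the block, they were -0.11 and -0.14 for MCM3, -0.022 and -0.028 for MCM7, -0.079 and -0.095 for CDT1, -0.25 and -0.25 for POLD2, -0.17 and -0.21 for TK1, -0.22 and -0.27 for CHAF1A, -0.26 and -0.35 for UHRF1, -0.13 and -0.20 for E2F1 and -0.013 and -0.024 for H2AC8. Without both libraries numbered 1, RPA1 had 0.049 and VWF 0.51. Leaving out 1 library, RPA1 ran from -0.37 to 0.16, CHAF1A from -0.029 to 0.76, UHRF1 from -0.042 to 0.74 (-0.00097 without TPA 3), VWF from -0.50 to 0.41 and COL1A1 from -0.60 to 0.19, with the highest value without TPA 1 in each. The cause of these changes was not tested.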
